A study of Homo sapiens with 31 samples.

Results

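The stretch of human chromosome 12 from CNOT2 to NR2C1, on the long arm at bands q15 to q22, was described gene by gene in xenografts of the prostate carcinoma line PC3. Its members were 60 named genes in map order, each taken from the probe sets that the platform annotation gives to that symbol alone, and, for a gene with several such sets, chosen by the highest mean level; each member had 1 set, so this measured value decided none. All 60 were measured, among 17314 genes in all. The stretch was proposed with the differences between the tumour lines already known, so differences between lines are given here as a description, beside the share of all genes that met the same criterion, and nothing is inferred from their number. The effect of the drug on the members was tested.

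RNA of 31 tumours was hybridised to Affymetrix Human Gene 1.0 ST arrays, which read a transcript with many short probes along it. PC3 is an established line from a metastatic human prostate carcinoma. Untreated and treated tumours of 4 lines were compared. The unpassaged parental line (wt) and A3, a single clone re-isolated after growth in animals, are labelled sensitive to cyclophosphamide (CPA), a DNA-crosslinking prodrug. D3 and D4, a single clone each and also re-isolated after growth in animals, are labelled resistant. Cells of all 4 lines were injected to form the tumours, which reached a mean of 30 mm3 before 1 group of each line received CPA at 120 mg/kg into the peritoneum and the other served as control. Each group held 4 arrays except untreated A3 with 3, because the submitters left out an outlying array, which was not analysed here. A3 is the control for passage in animals, but each clone stands for itself, and a difference between clones cannot be told apart from a difference between resistant and sensitive cells. Whether every array came from a different animal is not stated in the labels, and p-values therefore reflect only how these samples vary, part of which may be technical.

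The stretch holds genes of unlike function that happen to lie side by side. Several act at the cell surface or just beneath it: LGR5 binds R-spondins and strengthens Wnt signalling, KITLG is the ligand of the receptor KIT, DUSP6 removes phosphate from ERK and is itself switched on by ERK signalling, and SOCS2 restrains cytokine and growth hormone signalling through JAK and STAT5. Neighbouring genes can share regulatory DNA and are gained or lost together when a piece of a chromosome is, and DNA copy number was not analysed here.

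Values are log2 expression levels, and a difference of 1 is a doubling or a halving. A gene is called when the adjusted p of the linear model across all genes is under 0.05. The mean probe set signal of the members ran from 2.84 for OTOGL to 10.83 for DUSP6, and 22 of the 60 lay among the 30% of genes with the lowest signal, where small differences say little. Signals of different probe sets depend on their probes and are not compared as levels of expression. Among the markers looked up, the carcinoma markers KRT8, KRT18, KRT19 and HOXB13 ranked at the 94.7th to 97.5th percentile of signal. The androgen-driven genes KLK3 and KLK2 ranked at percentiles 28.6 and 27.2. The ranks of the other markers are not given here. The human arrays can also bind RNA of the mouse host. The mean of 12 fibroblast markers lay between 7.18 and 7.52 on the 31 arrays and that of the myeloid markers between 5.25 and 5.54. Single markers did differ between lines. Of the 12 fibroblast markers 1 was called higher and 3 lower than wt in untreated A3, 2 and 3 in D3, and 1 and 3 in D4. Of 7 measured carcinoma epithelium markers 0 and 3, 0 and 1, and 0 and 1 were called. Of all genes 10.1% and 8.36%, 9.69% and 8.4%, and 9.22% and 10.9% were. The part of host cells in the values was not tested, and in whole tumours fewer cells of a type and less RNA per cell cannot be told apart. The arrays farthest from their group mean were untreated D4 replicates 4 and 1, untreated A3 replicate 2 and treated D3 replicate 5.

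**Figure D1:**
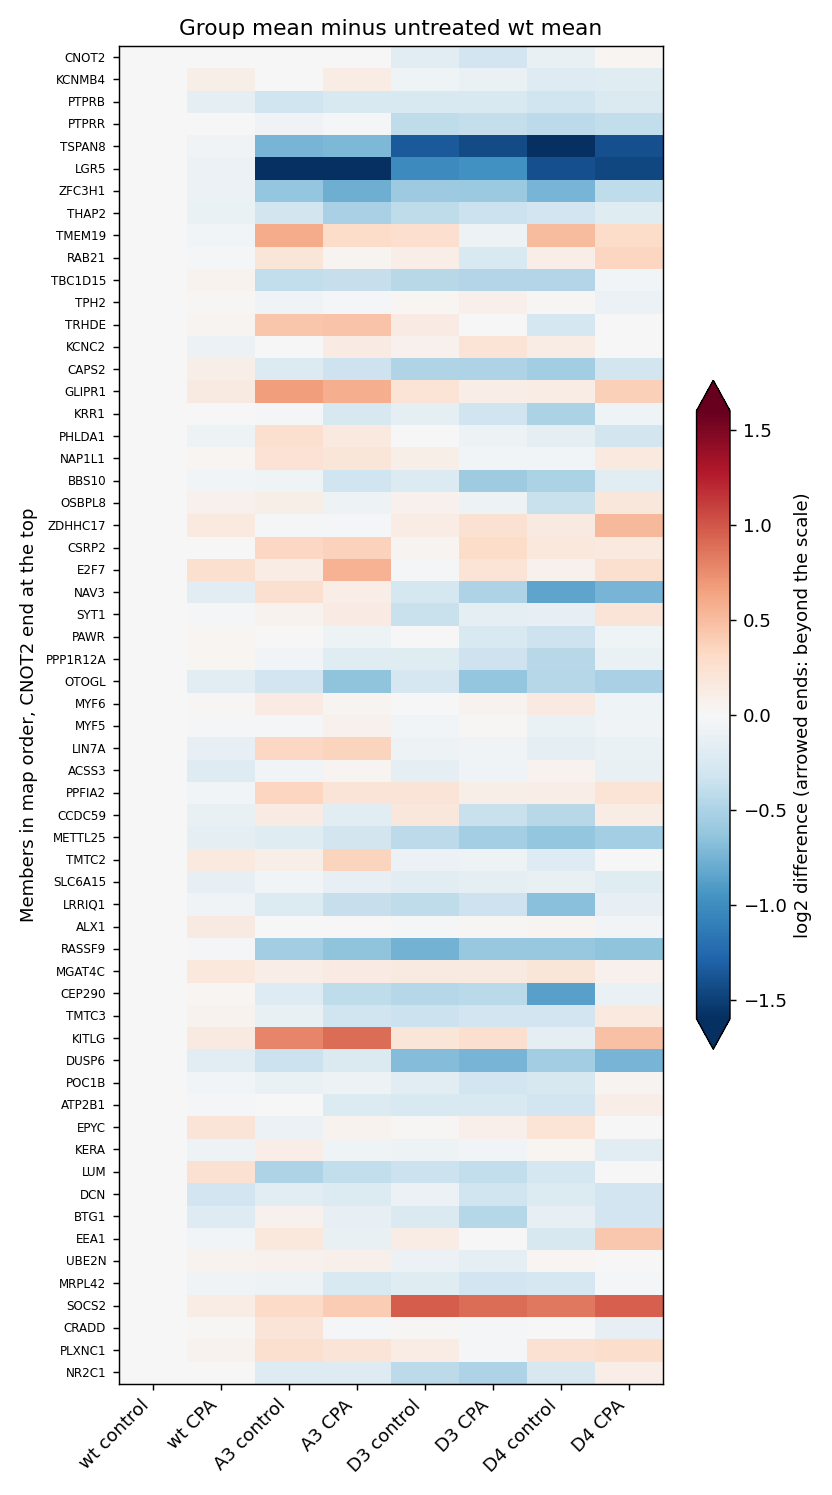
Mean log2 level of each member in the 8 groups of line and treatment, minus its mean in untreated wt (colour, red higher, blue lower, with an arrowed end where a value exceeds the scale). Rows follow the map from CNOT2 to NR2C1; the dark blue rows are TSPAN8 and LGR5, lower than wt in all 3 clones, and the red row near the end is SOCS2.

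In untreated tumours A3 had 8 members called higher and 7 called lower than wt, where 10.1% and 8.36% of all genes were. D3 had 2 higher and 12 lower, against 9.69% and 8.4% of all genes. D4 had 2 higher and 18 lower, against 9.22% and 10.9%. The median difference over the 60 members was -0.01 in A3, -0.09 in D3 and -0.21 in D4, and over all genes it was 0.04, 0.01 and 0.05. The A3 median was 0.08 without untreated A3 replicate 2 and -0.05 without replicate 1. These comparisons share the untreated wt arrays. The D4 count rests in part on 1 array: without untreated D4 replicate 4, in which the members' median lay 0.30 below their mean over all arrays (-0.30), 13 members were called and the median difference was -0.13. With only the compared groups in the fit, 12 were called in D4 and 8 in A3. Leaving out each array in turn, 5 of the 15 members called in A3 were called every time (TSPAN8, LGR5, TMEM19, GLIPR1 and PHLDA1). Of the 14 in D3 this held for 10 (PTPRR, TSPAN8, LGR5, THAP2, TMEM19, METTL25, RASSF9, DUSP6, SOCS2 and NR2C1). Of the 20 in D4 it held for 13 (PTPRB, PTPRR, TSPAN8, LGR5, ZFC3H1, TMEM19, NAV3, METTL25, LRRIQ1, RASSF9, CEP290, DUSP6 and SOCS2). The calls of the remaining members named below against untreated wt each ended without at least 1 array. With the replicate number as a block, LRRIQ1 (-0.42) and LUM (-0.37) were called lower in D3 as well.

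**Figure D2:**
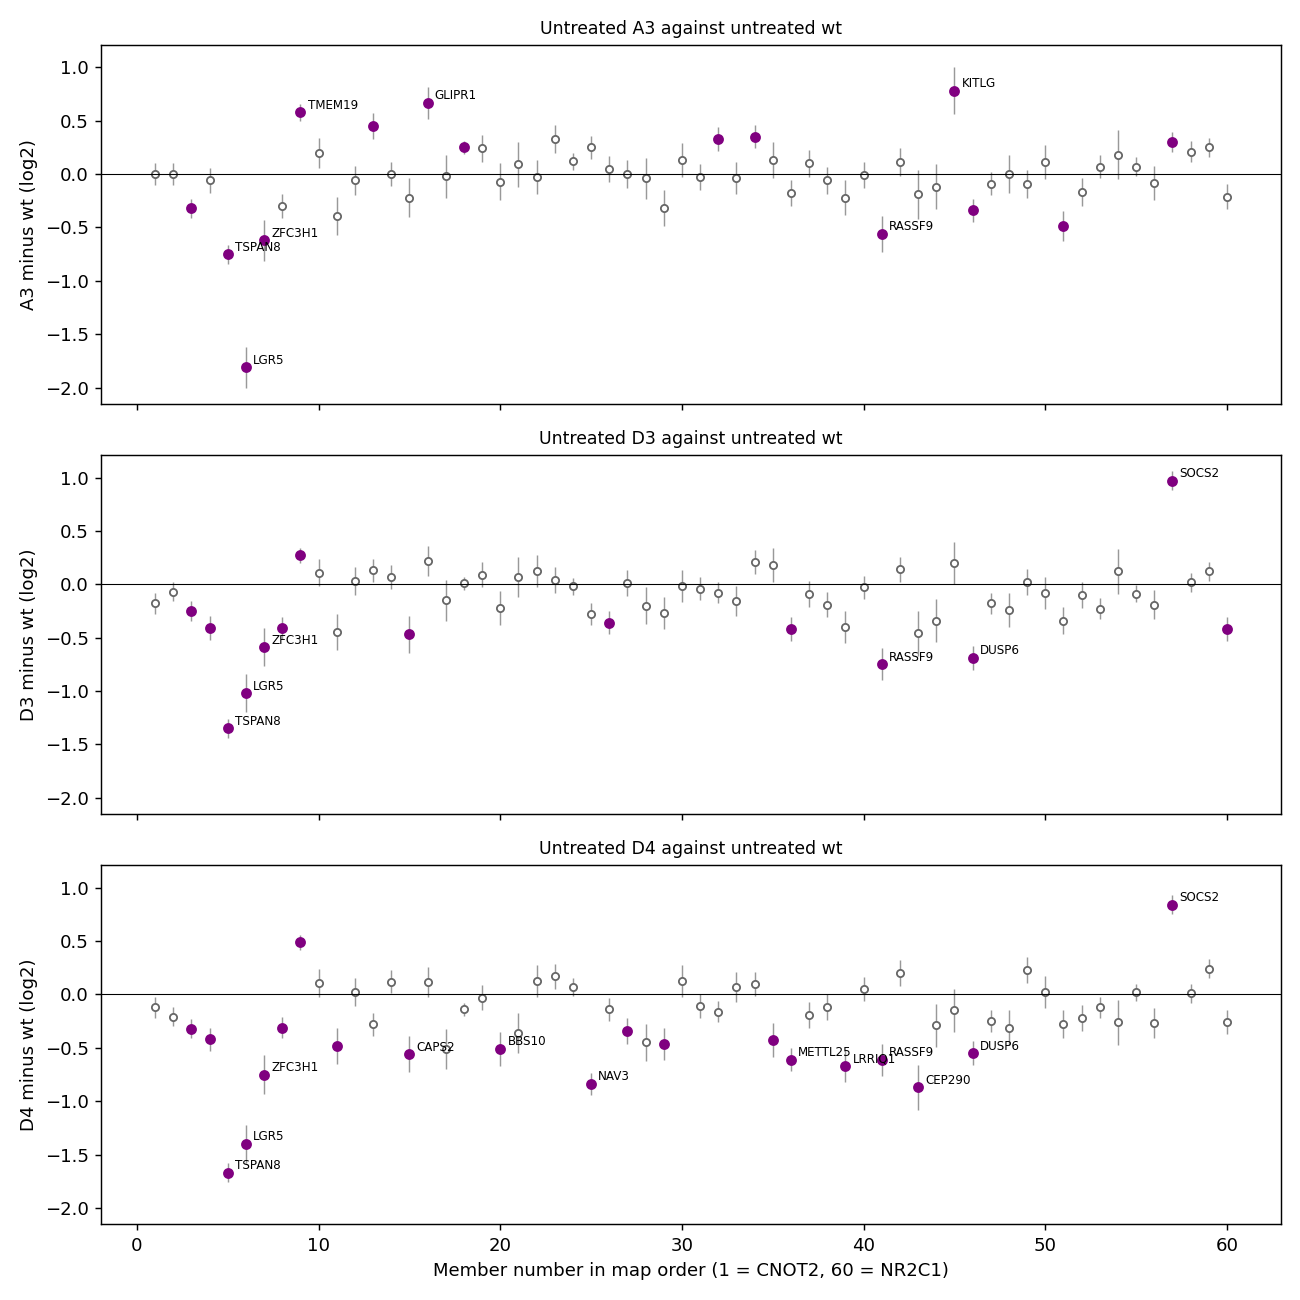
Log2 difference of each member from untreated wt in untreated A3, D3 and D4 (y axis) by its number in map order (x axis); bars are standard errors and filled points are called genes, named where the difference is at least 0.5 in size. In D3 and D4 the 6 neighbours PTPRB to THAP2 all lie below 0 and are filled.

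The surface receptors near the CNOT2 end carried the largest differences. TSPAN8 encodes a tetraspanin, a membrane protein that organises receptors at the surface and is abundant on exosomes. On the untreated arrays its log2 level was 9.40, 9.57, 9.65 and 9.41 in wt and 8.75, 8.65 and 8.88 in A3. In the resistant clones it was 8.10, 8.17, 8.23 and 8.13 in D3 and 7.77, 7.95, 7.78 and 7.85 in D4. The 4 lines followed the order wt, A3, D3, D4 with no overlap between any of the untreated groups. TSPAN8 was 1.68-fold lower than wt in A3 (-0.75 ± 0.09 SE), 2.55-fold lower in D3 (-1.35 ± 0.09) and 3.19-fold lower in D4 (-1.67 ± 0.09).

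LGR5, the R-spondin receptor that marks stem cells of the gut, is the next gene on the map and followed another order. It read 9.66, 9.22, 9.64 and 9.26 in untreated wt and 7.75, 7.35 and 7.82 in untreated A3. In D3 it read 8.78, 8.28, 8.55 and 8.10, and in D4 7.90, 8.12, 8.26 and 7.90. All clones lay below wt, with the lowest values in A3, while D3 and D4 overlapped each other. The difference from wt was -1.81 ± 0.19 in A3, a 3.50-fold lower level, -1.02 ± 0.18 in D3 and -1.40 ± 0.18 in D4. LGR5 was thus lower in the sensitive clone A3 as well as in both resistant clones.

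**Figure D3:**
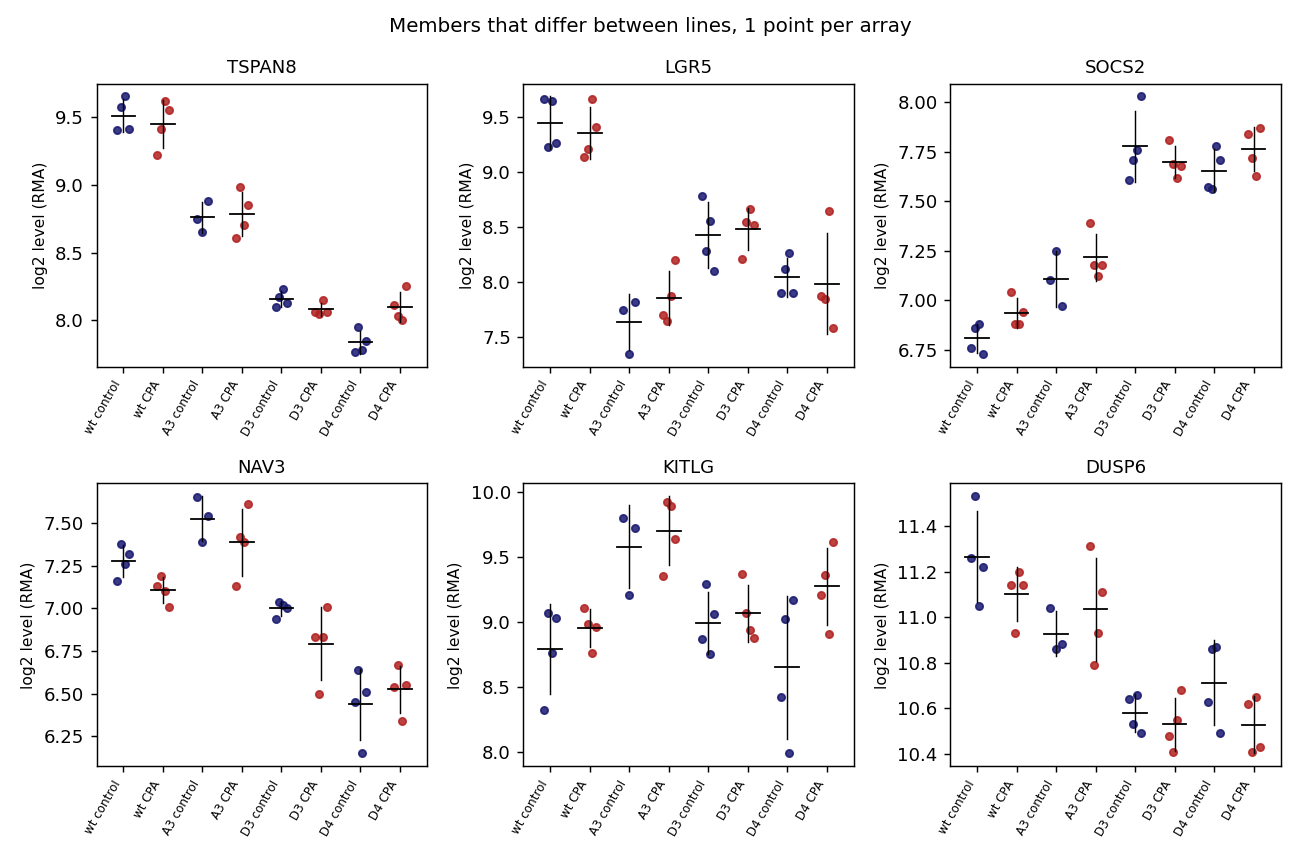
Log2 level on each array (points; dark, untreated; red, CPA) of 6 members in the 8 groups, with the group mean (horizontal line) and SD (vertical line, 3 or 4 arrays). TSPAN8 steps down from wt to A3 to the resistant clones, and SOCS2 steps up.

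These 2 genes lie within a run of 6 consecutive members, PTPRB, PTPRR, TSPAN8, LGR5, ZFC3H1 and THAP2, all called lower than wt in untreated D3 and in untreated D4, and no other measured gene lies between them. PTPRB, a receptor tyrosine phosphatase best known from endothelium, differed by -0.32 ± 0.09 in A3, -0.25 ± 0.09 in D3 and -0.32 ± 0.09 in D4. PTPRR, a phosphatase that acts on ERK family kinases, differed by -0.41 ± 0.11 in D3 and -0.42 ± 0.11 in D4 but by -0.06 in A3. Both genes and THAP2 belong to the members with low signal. ZFC3H1, whose protein delivers nuclear RNA to the exosome for decay, was lower in all 3 clones, by -0.62 ± 0.19, -0.59 ± 0.18 and -0.75 ± 0.18, the last -0.48 without D4 replicate 4. THAP2, a protein with a THAP DNA-binding domain, differed by -0.41 ± 0.10 in D3 and -0.31 ± 0.10 in D4, and its D4 and wt arrays overlapped. In A3 the run was shorter, from TSPAN8 to ZFC3H1, with PTPRB called apart from it, though at -0.20 and not called without A3 replicate 4.

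The run ended sharply on 1 side. TMEM19, the member after THAP2, encodes a membrane protein and was called higher than wt in every untreated clone, by 0.58 ± 0.08 in A3, 0.27 ± 0.07 in D3 and 0.49 ± 0.07 in D4. In treated tumours TMEM19 was called higher than wt in A3 and D4 (0.34 ± 0.07 each) but not in D3 (-0.03). PTPRB dropped from the D3 run without any of untreated wt replicates 1, 2 and 4 or untreated D3 replicates 2, 3 and 5, and ZFC3H1 dropped as well without wt replicate 2 or D3 replicate 3, which left 4 of the 6 called. THAP2 dropped from the D4 run without any of 5 arrays (wt replicates 2 and 3, D4 replicates 1, 4 and 5), which left 5. In A3 the 4 calls became 2 without wt replicate 2. TSPAN8 and LGR5 were called lower than wt in all 3 clones without any 1 array, and all 6 genes lay below wt in D3 and D4 in every such fit. The run was picked by its calls in these same arrays, so these fits are no separate test of it.

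ZFC3H1 and THAP2 share 1 promoter region and are read away from each other. Both were called lower than wt in untreated D3 and D4. They lay below wt in the sensitive clone A3 too (-0.62 and -0.30 untreated, the latter not called, and -0.68 and -0.42 treated, both called). In treated D3 (-0.50 and -0.24) and treated D4 (-0.32 and -0.09) neither was called against wt. Their windows are shown beside that of TSPAN8, the member with the largest difference in the untreated resistant clones. The sequences are the 250 bases before each gene's start in RefSeq on GRCh38.p14, 5′ to 3′ on the gene's own strand. The window of TSPAN8 is chr12:71158000-71158249 on the minus strand, with 40.8% G and C. The window of ZFC3H1 is chr12:71663849-71664098 on the minus strand and that of THAP2 chr12:71664051-71664300 on the plus strand, with 54.0% and 51.6%. Capitals mark the 48 bases that the last 2 windows have in common, one the reverse complement of the other.
TSPAN8: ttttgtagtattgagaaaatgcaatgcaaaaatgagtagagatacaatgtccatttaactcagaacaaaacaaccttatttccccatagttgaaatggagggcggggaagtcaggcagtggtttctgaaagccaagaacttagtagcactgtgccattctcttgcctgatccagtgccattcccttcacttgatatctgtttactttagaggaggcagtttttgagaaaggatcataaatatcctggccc
ZFC3H1: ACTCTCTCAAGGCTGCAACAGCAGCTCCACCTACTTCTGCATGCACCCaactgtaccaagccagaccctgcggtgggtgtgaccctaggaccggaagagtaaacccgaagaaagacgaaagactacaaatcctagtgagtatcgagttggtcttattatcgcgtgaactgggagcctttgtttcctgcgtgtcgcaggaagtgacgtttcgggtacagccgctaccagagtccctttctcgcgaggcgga
THAP2: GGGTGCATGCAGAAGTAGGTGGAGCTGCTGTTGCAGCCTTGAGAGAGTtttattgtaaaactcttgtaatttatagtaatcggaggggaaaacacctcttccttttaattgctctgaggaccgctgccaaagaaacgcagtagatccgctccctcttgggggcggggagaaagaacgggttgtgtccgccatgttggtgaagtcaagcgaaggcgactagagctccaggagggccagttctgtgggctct
The starts of ZFC3H1 and THAP2 lie 453 bases apart. RefSeq windows were matched for 48 of the 60 members. The STAT-type motif TTCNNNGAA stood on either strand in 1 of these 48 (MRPL42) and in 6.78% of all 27305 promoters. CTTTGAT, the core bound by TCF and LEF factors, stood in 0 of the 48 and in 2.28% of all. TGANTCA, an AP-1-type motif, stood in 3 (CRADD, PLXNC1 and NR2C1) and in 6.6% of all. None of these letters occurs in the 3 windows shown, which says nothing about the factors.

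KITLG and PLXNC1 lie farther along. KITLG, the ligand of KIT, read 8.32, 9.07, 8.76 and 9.03 in untreated wt and 9.80, 9.21 and 9.72 in untreated A3. In the resistant clones it read 8.87, 9.29, 8.75 and 9.06 in D3 and 8.42, 9.02, 7.99 and 9.17 in D4. The A3 arrays lay above every wt and D4 array, and D4 was spread over more than 1 log2 unit. KITLG was 1.72-fold higher in A3 than in wt (0.78 ± 0.22), and it differed from wt by 0.20 in D3 and -0.15 in D4 with neither called. The A3 call was lost without untreated wt replicate 1 (0.62), A3 replicate 1 (0.67) or A3 replicate 4 (0.71). PLXNC1, a semaphorin receptor, read 5.29, 5.60, 5.32 and 5.51 in wt, 5.61, 5.83 and 5.61 in A3, 5.53, 5.57, 5.54 and 5.57 in D3, and 5.76, 5.49, 5.61 and 5.82 in D4. PLXNC1 was not called against wt in any clone, and it belongs to the members with low signal, at percentile 22.2.

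Among the inhibitors of signalling, SOCS2 was the member with the clearest higher level in the resistant clones. It read 6.76, 6.86, 6.88 and 6.73 in untreated wt and 7.10, 7.25 and 6.97 in untreated A3. It read 7.61, 7.71, 7.76 and 8.03 in D3 and 7.57, 7.56, 7.78 and 7.71 in D4. Every D3 and D4 array lay above every A3 array, and every A3 array above every wt array. SOCS2 was 1.23-fold higher than wt in A3 (0.30 ± 0.09), 1.96-fold in D3 (0.97 ± 0.09) and 1.80-fold in D4 (0.84 ± 0.09). The A3 call was lost without untreated wt replicate 4, A3 replicate 1 or A3 replicate 2 (0.27, 0.30 and 0.23), and with array weights or only the compared groups in the fit.

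DUSP6, the ERK phosphatase, went the other way. Its levels were 11.26, 11.53, 11.05 and 11.22 in wt, 11.04, 10.86 and 10.88 in A3, 10.64, 10.53, 10.66 and 10.49 in D3, and 10.63, 10.86, 10.87 and 10.49 in D4. The wt arrays lay above all arrays of the clones, and D3 and D4 overlapped. The difference from wt was -0.34 ± 0.11 in A3, -0.69 ± 0.11 in D3 and -0.55 ± 0.11 in D4. In A3 that call was lost without untreated wt replicate 1 or 2 or A3 replicate 2 or 4, and with only the compared groups in the fit.

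PHLDA1, a small protein with a pleckstrin homology-like domain, set A3 apart. It read 10.18, 10.16, 10.22 and 10.20 in wt and 10.53, 10.47 and 10.32 in A3. It read 10.21, 10.18, 10.19 and 10.22 in D3 and 10.08, 10.05, 10.04 and 10.02 in D4. A3 lay above all other lines and D4 below them, at differences from wt of 0.25 ± 0.06 in A3 and -0.14 in D4, the latter not called. RASSF9, a protein of the RAS-association domain family, was lower than wt in A3 (-0.56 ± 0.17), D3 (-0.75 ± 0.15) and D4 (-0.61 ± 0.15), and its A3 call was lost without wt replicate 3 (-0.44) or A3 replicate 2 (-0.51). With only the compared groups in the fit, neither PHLDA1 in A3 nor RASSF9 in D4 was called. GLIPR1, a secreted protein family member known as a target of p53, was higher in A3 alone among the calls against wt (0.67 ± 0.15). PAWR, which favours cell death, was lower in D4 (-0.34 ± 0.12), but -0.22 and not called without D4 replicate 4. BTG1, CRADD and E2F7 were not called in any untreated clone.

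The other functional groups are counted beside the share of all genes called in the same direction, 10.1% higher in A3, 8.4% lower in D3 and 10.9% lower in D4. Of 12 channel, transporter and neuronal genes, 3 were higher in A3: TRHDE, a peptidase that degrades thyrotropin-releasing hormone (0.45 ± 0.12), the polarity scaffold LIN7A (0.33 ± 0.11, but 0.15 without A3 replicate 1) and PPFIA2, a liprin (0.35 ± 0.11). In D3 the lower ones were CAPS2 (-0.47 ± 0.17) and SYT1 (-0.36 ± 0.11), and in D4 CAPS2 (-0.56 ± 0.17), OTOGL (-0.46 ± 0.15) and NAV3. Of these genes LIN7A, PPFIA2, CAPS2 and OTOGL belong to the members with low signal, at percentiles 8.1, 13.7, 12.3 and 0.5. NAV3, a microtubule-binding protein of the navigator family, read 7.16, 7.38, 7.26 and 7.32 in wt, 7.65, 7.39 and 7.54 in A3, between 6.94 and 7.04 in the 4 D3 arrays, and 6.45, 6.64, 6.15 and 6.51 in D4. Its levels followed the order A3, wt, D3, D4 without overlap. The difference from wt was -0.84 ± 0.10 in D4, and NAV3 was not called against wt in untreated A3 or D3.

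Of 3 ciliary and centrosomal genes, CEP290 (-0.87 ± 0.21) and BBS10 (-0.51 ± 0.16) were lower in D4, where 10.9% of all genes were. CEP290, a protein of the ciliary transition zone, read 7.22, 7.65, 7.27 and 7.53 in wt and 6.80, 6.62, 5.80 and 6.96 in D4, with the lowest value in D4 replicate 4. Without that array the difference was -0.63, and that of BBS10 was -0.33 and not called. Of 10 genes of RNA, chromatin and protein turnover, 4 were lower in D3 and 4 in D4, against 8.4% and 10.9% of all genes. Beside ZFC3H1 and THAP2, METTL25, a methyltransferase-like protein, was lower in both (-0.42 ± 0.11 and -0.61 ± 0.11), the orphan nuclear receptor NR2C1 in D3 (-0.42 ± 0.11) and CCDC59 in D4 (-0.43 ± 0.16). In D4 TBC1D15, which regulates a RAB protein of late endosomes (-0.48 ± 0.17), and LRRIQ1 (-0.67 ± 0.15) were lower as well. LRRIQ1 belongs to the members with low signal, at percentile 14.3. TBC1D15 was -0.26 and not called without D4 replicate 4. None of the 4 muscle and contractility genes, MYF5 and MYF6 among them, was called in any untreated clone by limma. An unadjusted p under 0.05 was found for 1 in A3, 0 in D3 and 1 in D4, and for 28.8%, 28.8% and 32.5% of all genes.

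Of the 4 small leucine-rich proteoglycans of this stretch, which coat collagen fibrils and are typical products of fibroblasts, 1 was called. All 4 lay among the dimmest 10% of genes. DCN read 3.55, 3.53, 3.36 and 3.49 in untreated wt, 3.16, 3.66 and 3.13 in A3, 3.51, 3.26, 3.29 and 3.49 in D3, and 3.45, 3.15, 2.98 and 3.46 in D4, with overlap between all lines. LUM read 3.48, 3.29, 3.35 and 3.27 in wt, 3.10, 2.68 and 2.80 in A3, 3.35, 2.99, 2.65 and 3.04 in D3, and 2.84, 3.13, 3.01 and 3.29 in D4. The A3 arrays lay below the wt arrays (-0.49 ± 0.14), a call that was lost without A3 replicate 2 (-0.40).

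Set against A3, which was also grown in animals, the resistant clones had fewer called members. D3 had 2 higher and 5 lower than untreated A3, where 1.3% and 0.97% of all genes were called, and D4 had 1 higher and 8 lower, against 1.75% and 2.02%. The members' median was -0.14 for D3 and -0.17 for D4, with 46 and 48 of the 60 below 0, while the median of all genes was -0.02 and 0.00. Of all 17314 genes, 9538 and 8643 lay below 0. The genes around the stretch leaned the same way. Below 0 were 15 and 14 of the 20 measured genes before CNOT2 and 17 and 16 of the 20 after NR2C1. The same held for 15 and 10 of the 15 measured genes between members. On the rest of chromosome 12, 526 and 489 of 832 measured genes lay below 0, with medians of -0.04 and -0.03. The members' median was -0.09 for D3 without A3 replicate 1 and -0.10 for D4 without D4 replicate 4. Both comparisons rest on the same 3 A3 arrays. The D3 count was 3 without A3 replicate 1 or without D3 replicate 1. The D4 count was 5 without A3 replicate 1 and 14 without A3 replicate 2, 1 of the arrays that stood apart. The members called without any 1 array were TSPAN8 and SOCS2 in D3, and TSPAN8, TRHDE, PHLDA1, NAV3 and SOCS2 in D4.

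TSPAN8 was lower than A3 in D3 (-0.60 ± 0.09) and D4 (-0.93 ± 0.09), and SOCS2 was higher in both (0.67 ± 0.09 and 0.54 ± 0.09). NAV3 was 1.44-fold lower in D3 (-0.53 ± 0.11) and 2.13-fold lower in D4 (-1.09 ± 0.11). PHLDA1 (-0.24 ± 0.06 and -0.39 ± 0.06) and LIN7A (-0.42 ± 0.11 and -0.49 ± 0.11) were lower in both. The D3 calls of PHLDA1 and NAV3 were lost without A3 replicate 1, and that of PHLDA1 was lost without any single A3 or D3 array except A3 replicate 4. LIN7A was -0.23 in D3 and -0.30 in D4 without A3 replicate 1, with neither called. LGR5 was higher in D3 than in A3 (0.78 ± 0.19), a call that was lost without A3 replicate 2 (0.64) or D3 replicate 1 or 3. TMEM19 was lower in D3 (-0.32 ± 0.08). Lower in D4 were also KITLG (-0.93 ± 0.22), TRHDE (-0.73 ± 0.12), GLIPR1 (-0.55 ± 0.15) and METTL25 (-0.43 ± 0.12). KITLG was not called without A3 replicate 1 (-0.82) or 4 (-0.86), and it was -0.66 without the 4 arrays that stood apart.

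Untreated D4 and D3 differed in 1 member, NAV3, lower in D4 (-0.56 ± 0.10), where 0.231% of all genes were called lower and 0.0924% higher. NAV3 was no longer called without the 4 arrays that stood apart (-0.42) or with only these groups in the fit.

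The treated tumours of the same lines are other arrays. TSPAN8 read 9.22, 9.41, 9.62 and 9.55 in treated wt, 8.61, 8.98, 8.70 and 8.85 in A3, 8.06, 8.05, 8.15 and 8.06 in D3, and 8.11, 8.03, 8.00 and 8.25 in D4. Treated wt lay above A3, and A3 above the resistant clones, which overlapped. The differences from treated wt were -0.66 ± 0.09, -1.37 ± 0.09 and -1.35 ± 0.09. LGR5 read 9.13, 9.21, 9.66 and 9.41 in treated wt, 7.70, 7.65, 7.87 and 8.20 in A3, 8.21, 8.54, 8.66 and 8.52 in D3, and 7.87, 7.85, 8.64 and 7.58 in D4. Here too every clone lay below wt, by -1.50 ± 0.18, -0.87 ± 0.18 and -1.37 ± 0.18.

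SOCS2 read 7.04, 6.88, 6.88 and 6.94 in treated wt, 7.39, 7.18, 7.12 and 7.18 in A3, 7.81, 7.69, 7.62 and 7.68 in D3, and 7.84, 7.72, 7.63 and 7.87 in D4. Treated wt lay below A3, and A3 below both resistant clones, which overlapped, at 0.28 ± 0.09, 0.76 ± 0.09 and 0.83 ± 0.09 above treated wt. The A3 call was lost without treated wt replicate 2 or 3 (0.26 each) or treated A3 replicate 1 (0.22). DUSP6 read 11.14, 10.93, 11.20 and 11.14 in treated wt, 11.31, 10.79, 10.93 and 11.11 in A3, 10.48, 10.41, 10.55 and 10.68 in D3, and 10.62, 10.41, 10.65 and 10.43 in D4. Treated A3 overlapped wt (-0.07, not called), and D3 and D4 lay below both (-0.57 ± 0.11 against wt in each). KITLG read 9.11, 8.98, 8.76 and 8.96 in wt, 9.35, 9.92, 9.89 and 9.64 in A3, 9.37, 9.07, 8.94 and 8.88 in D3, and 9.21, 9.36, 8.91 and 9.61 in D4. It was higher in treated A3 than in treated wt (0.75 ± 0.20), and its lower level in D4 than in A3 was not called in treated tumours (-0.43).

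Other members differed less alike between the sets of arrays. In treated tumours 9 members were called higher and 7 lower in A3 than in wt (6.74% and 9.6% of all genes), 2 and 14 in D3 (6.28% and 10.1%), and 3 and 9 in D4 (7.54% and 7.59%). Of these, 11 in A3, 7 in D3 and 8 in D4 were called without any 1 array, and the D3 count was 9 without treated wt replicate 2. The run of lower neighbours was TSPAN8 to THAP2 in treated A3 and PTPRR to LGR5 in treated D3 and D4. All 6 genes from PTPRB to THAP2 lay below treated wt in each clone, but some by little. PTPRR differed by -0.03 in A3, and PTPRB and THAP2 by -0.09 each in D4, with none of these called. Of all 17314 genes, 7363, 7344 and 9408 lay below treated wt in A3, D3 and D4. CEP290 was at -0.87 ± 0.21 against wt in untreated D4 and at -0.14 in treated D4, where it was not called. PHLDA1 read 10.11, 10.12, 10.14 and 10.07 in treated wt, 10.45, 10.36, 10.32 and 10.27 in A3, 10.21, 10.04, 10.08 and 10.12 in D3, and 9.94, 9.85, 9.91 and 9.90 in D4. A3 was again highest (0.24 ± 0.06) and D4 lowest (-0.21 ± 0.06). LUM read 3.62, 3.40, 3.46 and 3.89 in treated wt, 2.87, 3.04, 2.88 and 3.00 in A3, 3.08, 2.98, 3.00 and 2.74 in D3, and 3.21, 3.62, 3.19 and 3.35 in D4. It was lower than treated wt in A3 (-0.65 ± 0.13) and D3 (-0.64 ± 0.13), without overlap and also without any 1 array, and was not called in D4 (-0.25). CSRP2, a LIM protein of the muscle and contractility group, was called higher in treated A3 (0.37 ± 0.12), with overlap between the arrays, and that call was lost without any of 6 single arrays (treated A3 replicates 1, 2 and 3, treated wt replicates 1, 2 and 3; 0.31 to 0.37).

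Against treated A3, D3 had 2 members higher and 10 lower (1.56% and 2.99% of all genes), and D4 had 4 and 10 (7.41% and 4.97%). TSPAN8 (-0.70 ± 0.09 and -0.69 ± 0.09), NAV3 (-0.59 ± 0.10 and -0.86 ± 0.10), DUSP6 (-0.51 ± 0.11 in both), E2F7 (-0.34 ± 0.08 and -0.31 ± 0.08) and SOCS2 (0.48 ± 0.09 and 0.55 ± 0.09) were called in both clones. Without treated A3 replicate 1 the D3 count was 7 and the D4 count 8. Treated D4 against treated D3 had 7 members higher and 1 lower, where 4.56% and 3.49% of all genes were called. NR2C1 (0.60 ± 0.11), RAB21, an endosomal RAB protein (0.59 ± 0.13), TMEM19 (0.37 ± 0.07) and PLXNC1 (0.31 ± 0.09) were among the higher ones. TMEM19 and NR2C1 were called without any 1 array, RAB21 was lost without treated D3 replicate 5 (0.49), and PLXNC1 was lost without any of 6 single arrays (treated D3 replicates 2, 3 and 4, treated D4 replicates 1, 2 and 5; 0.26 to 0.32). The count of members for treated D4 against D3 was 3 without treated D3 replicate 5 and 11 without treated D4 replicate 4. In the same comparison 4 of the 20 measured genes before CNOT2 and 5 of the 20 after NR2C1 were called higher, and 0 lower. Of the 15 measured genes between members 0 were called.

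**Figure D4:**
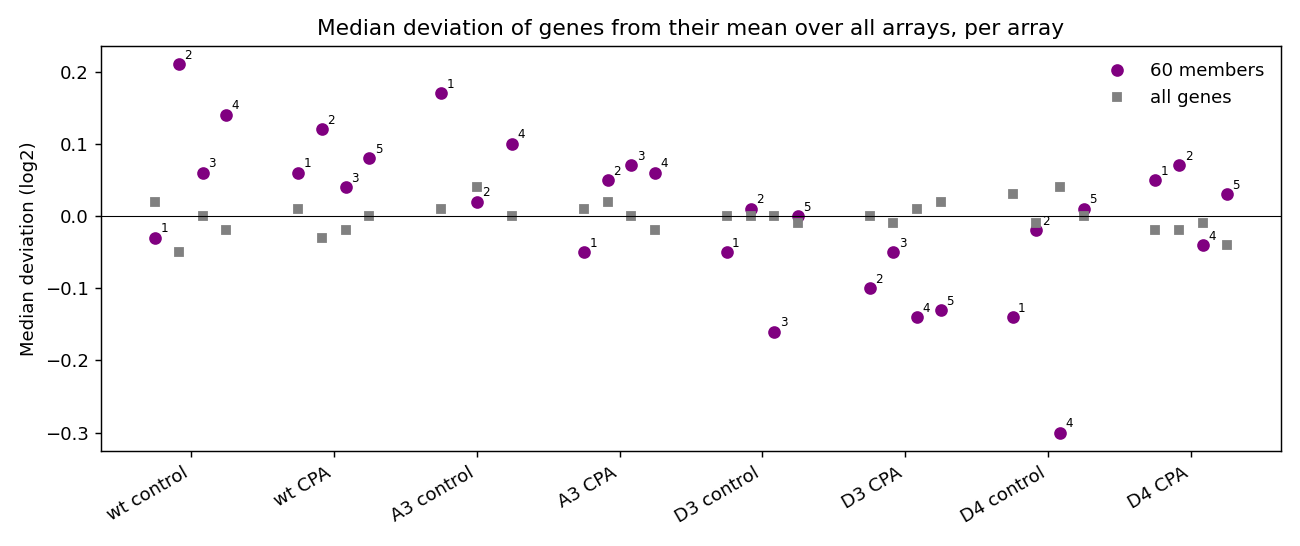
Median deviation of the 60 members (circles, numbered by replicate) and of all 17314 genes (squares) from each gene's mean over all 31 arrays, in log2 units, for every array in the 8 groups. Untreated D4 replicate 4 has the lowest member median, -0.30, while all arrays lie near 0 for all genes.

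The median deviation of the members differed between arrays of the same group. In untreated D4 their median deviation was -0.14, -0.02, -0.30 and 0.01 on replicates 1, 2, 4 and 5, and in untreated wt it was -0.03, 0.21, 0.06 and 0.14. The treated D4 arrays lay at 0.05, 0.07, -0.04 and 0.03. Within the untreated D4 group the members' median therefore spread over a wider range than the D4 mean differs from wt. The -0.21 median difference of untreated D4 is smaller than the distance between replicates 4 and 5. Members above the median gene in signal and the dimmer ones did not always move alike. Their medians were -0.20 and 0.08 on untreated D4 replicate 1 and -0.10 and 0.15 on untreated wt replicate 1. On untreated D4 replicate 4 they were -0.41 and -0.21.

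The genes around the stretch were counted the same way, beside 10.1%, 9.69% and 9.22% of all genes called higher and 8.36%, 8.4% and 10.9% called lower in A3, D3 and D4. Of the 20 measured genes before CNOT2, 4 were called higher and 0 lower in untreated A3 against wt, 1 and 0 in D3, and 2 and 1 in D4. Of the 20 after NR2C1, 2 and 1 were called in A3, 0 and 6 in D3, and 1 and 5 in D4. Of 15 measured genes that lie between members without being members, 1 and 0, 0 and 2, and 0 and 2 were called. The single A3 call among these 15 was NTS, the neurotensin gene, 2.58 ± 0.24 above wt, and NTS differed from wt by 0.52 in D3 and -0.03 in D4.

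Genes of the same pathways or families elsewhere in the genome were counted next. The untreated clones are given in the order A3, D3, D4, each against wt, and the shares of all genes are those given for the genes around the stretch. Of 15 measured genes driven by or acting on ERK signalling, as DUSP6 does, 3 higher and 2 lower, 1 and 1, and 1 and 4 were called. The ERK pathway inhibitor SPRY4 was lower in every clone (-0.74 ± 0.13, -0.44 ± 0.12 and -0.64 ± 0.12), and the receptor EPHA2 was higher (0.38 ± 0.10, 0.39 ± 0.09 and 0.38 ± 0.09). ETV1, an ETS factor, was lower than A3 in D3 (-0.48 ± 0.10) and D4 (-0.62 ± 0.10).

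Of 13 genes of the SOCS family and of STAT5 signalling, 1 and 1, 2 and 1, and 1 and 1 were called. The STAT5 target CISH was higher in D3 (0.27 ± 0.08) and D4 (0.26 ± 0.08), and the transcriptional repressor BCL6 was lower in all 3 (-0.45 ± 0.10, -0.49 ± 0.10 and -0.61 ± 0.10). No gene of that list was called between a resistant clone and A3 in untreated tumours by limma, with an unadjusted p under 0.05 for 0 in D3 and 1 in D4. Of 13 genes of the R-spondin receptor pathway, 1 and 2, 1 and 0, and 1 and 0 were called. LEF1, a nuclear effector of Wnt signalling, was higher in every clone (0.75 ± 0.12, 0.43 ± 0.11 and 0.38 ± 0.11), and LGR4, a receptor related to LGR5, was lower in A3 (-0.49 ± 0.09). RNF43, a ubiquitin ligase that removes Wnt receptors, was lower in A3 than in wt (-0.47 ± 0.11) and higher in D3 (0.61 ± 0.11) and D4 (0.50 ± 0.11) than in A3.

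Of 13 other tetraspanins, 0 and 3, 1 and 2, and 1 and 2 were called. TSPAN1 (-1.01 ± 0.13, -0.87 ± 0.12 and -0.56 ± 0.12) and TSPAN12 (-0.88 ± 0.12, -0.51 ± 0.11 and -0.44 ± 0.11) were lower in every clone, as TSPAN8 was. Of 8 small leucine-rich proteoglycans elsewhere, 1 and 1, 0 and 0, and 1 and 1 were called, with ASPN lower in A3 (-0.48 ± 0.14) and D4 (-0.43 ± 0.13).

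Few members were called for CPA, and a member not called is not thereby shown to be unchanged. None of the CPA calls held with each array left out in turn. E2F7, a repressor of cell cycle genes that also acts after DNA damage, was the only member called in A3, where 0.104% of all genes were called higher. It read 9.12, 9.14 and 9.00 in untreated and 9.53, 9.42, 9.54 and 9.63 in treated A3. In wt it read 8.93, 8.95, 9.00 and 9.01 untreated and 9.31, 9.20, 9.26 and 9.10 treated. In the resistant clones it read 9.05, 9.05, 8.85 and 8.85 untreated and 9.16, 9.16, 9.29 and 9.13 treated in D3, and 8.76, 9.14, 9.17 and 9.08 untreated and 9.25, 9.27, 9.19 and 9.18 treated in D4. In each of the 4 lines every treated array lay above every untreated array.

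E2F7 rose in A3 by 0.44 ± 0.08 (limma, adjusted p = 0.00785). The differences in the other lines did not pass the test: 0.25 ± 0.08 in wt (adjusted p = 0.677), 0.24 ± 0.08 in D3 (0.269) and 0.18 ± 0.08 in D4 (0.17). A larger effect in A3 was not shown, since the difference between the A3 and wt effects was 0.19 ± 0.11 (limma, adjusted p = 1). The A3 call was lost without untreated A3 replicate 4 (0.40) and with only the A3 arrays in the fit (adjusted p = 0.235 by limma).

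TMEM19 was the only member called in D3, where 0.231% of all genes were called lower and none higher. It read 8.42, 8.47, 8.48 and 8.47 in untreated and 8.20, 8.04, 8.06 and 8.16 in treated D3, without overlap, and fell by 0.34 (-0.34 ± 0.07, limma, adjusted p = 0.0182). In A3 it read 8.81, 8.74 and 8.77 untreated and 8.49, 8.56, 8.41 and 8.47 treated (-0.29 ± 0.08, limma, adjusted p = 0.112). In D4 it read 8.59, 8.71, 8.72 and 8.73 untreated and 8.46, 8.54, 8.34 and 8.59 treated (-0.20 ± 0.07, limma, adjusted p = 0.117). In wt the groups overlapped, at 8.04, 8.18, 8.20 and 8.35 untreated and 8.19, 8.07, 8.06 and 8.26 treated (-0.05). The effects in D3 and wt differed by -0.30 ± 0.10, which did not pass (limma, adjusted p = 0.733). The D3 call was lost after a further quantile normalization (adjusted p = 0.0518 by limma), with only the D3 arrays in the fit (0.0896), and without any of 5 single arrays (untreated D3 replicates 2, 3 and 5, treated D3 replicates 3 and 4; -0.34 to -0.32).

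**Figure D5:**
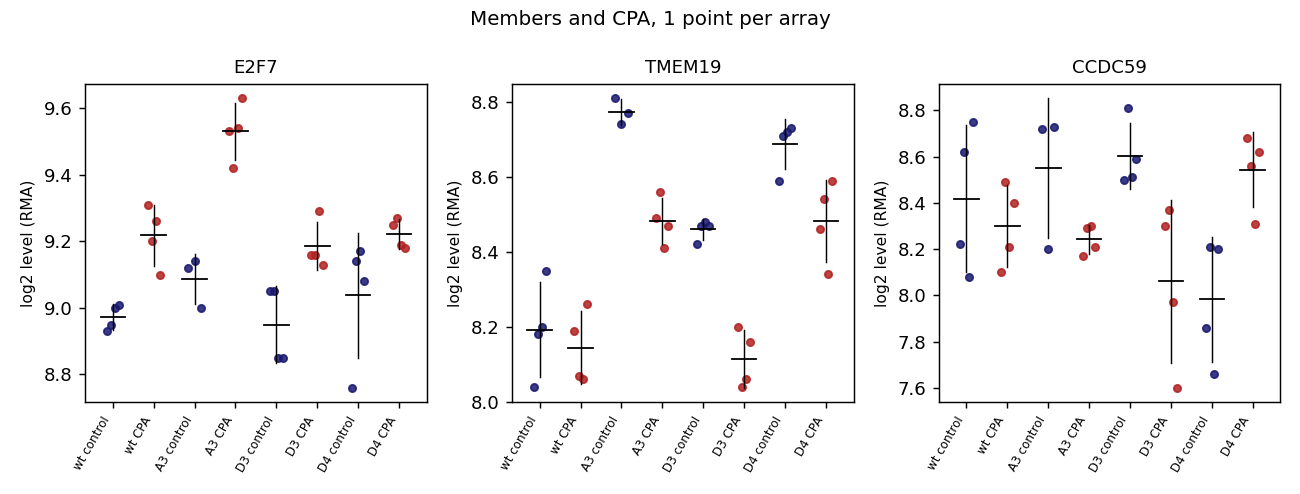
Log2 level on each array (points; dark, untreated; red, CPA) of E2F7, TMEM19 and CCDC59 in the 4 lines, with the group mean (horizontal line) and SD (vertical line, 3 or 4 arrays). Treated E2F7 lies above untreated in every line, and CCDC59 lies lower with CPA in D3 and higher in D4.

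CCDC59 behaved differently in the resistant clones. It read 8.50, 8.81, 8.51 and 8.59 in untreated and 8.30, 8.37, 7.97 and 7.60 in treated D3. In D4 it read 7.86, 8.21, 7.66 and 8.20 untreated and 8.68, 8.56, 8.31 and 8.62 treated. The groups did not overlap in either clone, with CPA below control in D3 and above it in D4. Neither effect passed by itself (-0.54 ± 0.16, adjusted p = 0.195, and 0.56 ± 0.16, adjusted p = 0.0646, both limma). The difference between them was 1.10 ± 0.22 (limma, adjusted p = 0.0443), the only member called over 6 pairs of lines. In this pair 0.0289% of all genes were called higher and 0.0578% lower, and in the other 5 pairs 0% were called. Without the 4 arrays that stood apart, of which 2 are untreated D4 and 1 treated D3, it was 0.73 (limma, adjusted p = 0.611), and it was also lost with only these groups in the fit (0.0551), with the replicate block (0.0534), after quantile normalization (0.0741) and after median centring (0.0541). It was also lost without any of 13 of the 16 single arrays, at 0.95 without treated D3 replicate 5 (limma, adjusted p = 0.134) and 1.06 without untreated D4 replicate 1 (0.145). It was called without untreated D3 replicate 1, treated D3 replicate 2 or untreated D4 replicate 2.

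No member was called for CPA in wt by limma, where 0.0462% of all genes were, and 3 of 60 had an unadjusted p under 0.05 against 3.38% of all genes. In D4 no member was called either, where 1.03% of all genes were, and 22 of 60 had an unadjusted p under 0.05 against 21.9% of all genes. The D4 members leaned upward, with a median of 0.12 (0.18 without untreated D4 replicate 2) and 40 of 60 above 0, while all genes had a median of -0.03 and 7406 of 17314 above 0. The flanking genes leaned upward too, with 14 of the 20 before CNOT2 and 14 of the 20 after NR2C1 above 0. Of the 15 measured genes between members, 6 were above 0. Among the members the smallest p-values belonged to LRRIQ1 (0.54 ± 0.15, adjusted p = 0.0607 by limma) and CEP290 (0.77 ± 0.21, 0.0628). The same untreated D4 arrays, replicates 1 and 4 among them, enter this comparison and that of untreated D4 with wt. The D4 count was 6 without untreated D4 replicate 2, 5 without untreated D4 replicate 5, and 1 without treated D4 replicate 4.

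TSPAN8, LGR5, SOCS2, KITLG, DUSP6 and PHLDA1 were not called for CPA in any line. The widest of their differences were 0.62 ± 0.20 for KITLG (limma, adjusted p = 0.101) and 0.26 ± 0.09 for TSPAN8 (0.11), both in D4. DCN read 3.27, 3.27, 2.87 and 3.28 in treated wt, 3.02, 3.27, 3.35 and 3.38 in A3, 3.18, 3.21, 3.28 and 2.98 in D3, and 3.16, 2.95, 3.26 and 3.30 in D4. Its treated wt arrays lay below the untreated ones (-0.31 ± 0.12, limma, adjusted p = 1). PLXNC1 read 5.46, 5.50, 5.58 and 5.37 in treated wt, 5.55, 5.80, 5.54 and 5.62 in A3, 5.39, 5.33, 5.25 and 5.64 in D3, and 5.68, 5.77, 5.71 and 5.67 in D4, and CPA moved it by at most 0.15 (-0.15 in D3, not called). None of the 62 measured genes in the pathway and family lists was called for CPA in any line by limma, with an unadjusted p under 0.05 for 3 in wt, 4 in A3, 3 in D3 but 17 in D4.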

How the data were processed

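The deposited table held log2 values of 23989 probe sets on 31 arrays, made by the authors with RMA, per the submitters' processing notes; its version is not given in the sources used here. RMA corrects background, gives all arrays 1 distribution and summarises probes, so a change shared by most genes would not show. Array medians were 6.59 to 6.73. Of the probe sets 17624 carried 1 symbol, 411 several and 5954 none, in GEO's platform annotation; 17314 genes remained, 276 of them with several sets. RefSeq (GRCh38.p14) gave map order for 17290 genes.

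limma 3.58.1 in R 4.3.3 fitted the 8 group means at once (23 residual degrees of freedom), with p-values adjusted by Benjamini-Hochberg over all genes. Precision is limited by the number of arrays. The fit was tested on simulated data. Members, gene lists and named genes were chosen with earlier results of these data known. Named were 10 fixed members, up to 10 called members with the largest difference per untreated line comparison, members called for CPA, the ends of runs, and up to 3 genes per list; CCDC59, LRRIQ1, CEP290 under CPA and the treated D4 against D3 genes were chosen after their values were seen. Alternatives were a fit of only the compared groups, a replicate block, array weights, all probe sets, quantile normalization, median centring, no genes from the dimmest 30%, and each array left out; a fit without the 4 farthest arrays was added after seeing the data.

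Same-numbered arrays deviated together in every pair for untreated D3 with wt (correlations 0.155 to 0.408) and D4 with D3 (0.214 to 0.425), and not in every pair elsewhere (-0.661 to 0.600). No label says what a number marks.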

Additional observations from a re-analysis of the deposited data

Results flagged for a closer look

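In the 17 members described most closely, 119 groups of 4 arrays were searched for an array far from the other 3, and 7 were found; chance flags about 1 in 20 groups. They were TSPAN8 in treated D3 replicate 4 (8.15, the highest of its group), DCN in treated wt replicate 3 (2.87, the lowest), TMEM19 in untreated D4 replicate 1 (8.59, the lowest), ZFC3H1 in untreated D4 replicate 4 (8.02, the lowest), RASSF9 in treated D3 replicate 2 (4.56), METTL25 in untreated D3 replicate 3 (6.27) and METTL25 in treated D3 replicate 5 (6.39). Without untreated D4 replicate 4, ZFC3H1 differed from wt by -0.48 in D4.

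The effect of CPA on CCDC59 differed between D4 and D3 by 1.10 (limma, adjusted p = 0.0443). With 1 array left out at a time the difference ran from 0.95 to 1.20, and it was no longer called without any of 13 of the 16 arrays.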

How the results depend on the processing

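The counts of called members changed by more than 1.5 times under some settings. With only the compared groups in the fit they were 8 for untreated A3 against wt, 12 for D4 against wt, 3 for D3 against A3, 2 for D4 against A3, 0 for D4 against D3, and 0 for CPA in A3 and in D3. Array weights gave 14 for D3 against A3, 3 for CPA in A3, 2 for CPA in D3 and 1 for CPA in D4. Quantile normalization gave 0 for CPA in D3 and 1 in D4, and leaving out the dimmest 30% of genes gave 1 for CPA in D4. Without the 4 farthest arrays the count was 12 for D4 against wt and 0 for D4 against D3. With each array left out in turn the counts ran from 10 to 13 for A3 against wt, 10 to 14 for D3, 13 to 25 for D4, 3 to 7 for D3 against A3, 5 to 14 for D4 against A3, 1 to 1 for D4 against D3, 0 to 0 for CPA in wt, 0 to 1 in A3 and in D3, and 0 to 6 in D4.

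With the replicate number as a block the counts were 14, 16 and 16 for A3, D3 and D4 against wt, 7 and 9 against A3, 1 for D4 against D3, and 0, 1, 1 and 0 for CPA in wt, A3, D3 and D4. Over all members and comparisons the block ended 10 calls and added 6. Ended were PPFIA2 in untreated A3 (0.33), THAP2, TBC1D15, PAWR and CCDC59 in untreated D4 (-0.29, -0.48, -0.33 and -0.44), OTOGL in treated D3 (-0.36), KCNMB4 and RAB21 in treated D4 (-0.28 and 0.37), each against wt, LUM in treated D4 against A3 (0.34) and the CCDC59 difference (1.11). Added beside LRRIQ1 and LUM in untreated D3 were CSRP2 in treated D3 against wt (0.33) and CNOT2, KITLG and BTG1 in treated D3 against A3 (-0.34, -0.71 and -0.34). No value of a called member changed sign under any setting. For the causes, the fit of fewer groups has fewer degrees of freedom, and the others were not tested. All probe sets gave the same counts. Medians of the members moved as well: for untreated D4 against wt to -0.12 with array weights and -0.06 without the 4 farthest arrays, for A3 against wt to 0.08 and for D4 against D3 to 0.03 without those 4, and for CPA in D4 to 0.26 over the 38 members outside the dimmest 30% of genes. The other 22 members lay within that 30%, which limits what the arrays show of them.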
